A study of Mus musculus with 7 samples.

Results

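The genes described here are 42 genes of the cell division cycle, measured in whole mouse embryos that carry 2, 1 or 0 intact copies of Adnp. They were chosen by symbol and fall into 3 roles: 13 S-phase genes, which license and copy DNA, 7 regulators of G1 and S phase, and 22 mitotic genes. A gene was read from a probe set, a group of short array probes for 1 transcript, whose platform annotation gives that symbol and no other, and from the one with the highest mean signal where there were several. Of the 42 genes, 41 had such a probe set (Ccnb1 had none), and 40 passed a filter on dim signals, out of 8020 genes tested in all. The gene that did not pass was Tyms, thymidylate synthase, with signals of 8.1 to 29.5 on the 7 arrays. The measured genes were thus 12 S-phase genes, 7 regulators and 21 mitotic genes.

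RNA came from whole C57BL/6 embryos on embryonic day 9, dissected free of yolk sac and amnion and genotyped by PCR on yolk sac DNA for Adnp and the neomycin resistance gene. The 3 genotypes were littermates: Adnp +/+ (wild type, 2 arrays), Adnp -/+ (heterozygous, 3 arrays) and Adnp -/- (knockout, 2 arrays). Each of the 7 Affymetrix Murine Genome 430A arrays held a pool of 2 embryos of 1 genotype, 14 embryos in all. The labels give the pools as mixed in sex, which the arrays bear out for only some of them (values below). The study asked which genes respond to the loss of ADNP, a homeodomain and zinc finger protein that binds chromatin, at an age when knockout embryos are visibly abnormal but not yet resorbed. The labels do not say how litters were spread over the pools, so p-values measure the spread between pools.

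Before a cell copies its DNA, the loading factors Cdc6 and Cdt1 place the MCM2 to MCM7 helicase on origins of replication. D-type cyclins with CDK4 then release E2F transcription factors from the retinoblastoma protein, and E2F factors switch on the S-phase genes. Later, the MuvB complex with B-MYB and FOXM1 switches on mitotic genes through promoter elements called CHR (cell cycle genes homology region), often beside CCAAT boxes that bind NF-Y. Cells of the embryo at this age divide quickly, and 40 of the 41 genes with a probe set passed the filter on dim signals.

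The promoters of some of these genes hold the letters of the 2 waves. Printed here are 6: those of 2 S-phase genes, 2 mitotic genes that did not pass the test and the 2 that did. RefSeq promoters on GRCm38.p6, from 250 bases before to 50 bases after the transcript start, were found for 33 of the 42 genes. Both strands were searched for 4 spellings of an E2F element (TTTGGCGC, TTTCGCGC, TTTCCCGC and TTTGCCGC), for the CHR letters TTTGAA and for CCAAT. Each line below gives the 250 bases before the start, 5′ to 3′ on the gene's strand, with every match to 1 of the 3 elements in capitals, on either strand. Positions are Mcm6 chr1:128359706-128359955 (minus strand), Mcm7 chr5:138171884-138172133 (minus strand, 1 of its starts), Top2a chr11:99024190-99024439 (minus strand), Cdc20 chr4:118437344-118437593 (minus strand), Birc5 chr11:117848987-117849236 (plus strand) and Nusap1 chr2:119618048-119618297 (plus strand).
Mcm6: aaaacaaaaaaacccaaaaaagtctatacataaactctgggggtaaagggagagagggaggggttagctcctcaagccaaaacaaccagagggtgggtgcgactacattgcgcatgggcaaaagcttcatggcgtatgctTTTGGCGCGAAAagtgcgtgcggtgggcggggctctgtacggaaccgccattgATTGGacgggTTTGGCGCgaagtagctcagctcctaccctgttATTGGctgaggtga
Mcm7: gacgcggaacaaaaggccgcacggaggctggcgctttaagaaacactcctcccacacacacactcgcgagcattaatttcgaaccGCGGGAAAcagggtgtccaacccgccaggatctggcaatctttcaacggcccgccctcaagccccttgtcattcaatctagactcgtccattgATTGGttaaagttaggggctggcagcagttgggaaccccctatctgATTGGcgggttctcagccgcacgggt
Top2a: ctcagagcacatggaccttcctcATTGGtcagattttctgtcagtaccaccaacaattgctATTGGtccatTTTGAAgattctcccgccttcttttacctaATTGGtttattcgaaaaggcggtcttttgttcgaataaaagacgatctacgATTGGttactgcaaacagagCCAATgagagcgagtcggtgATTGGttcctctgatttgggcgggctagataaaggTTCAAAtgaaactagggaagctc
Cdc20: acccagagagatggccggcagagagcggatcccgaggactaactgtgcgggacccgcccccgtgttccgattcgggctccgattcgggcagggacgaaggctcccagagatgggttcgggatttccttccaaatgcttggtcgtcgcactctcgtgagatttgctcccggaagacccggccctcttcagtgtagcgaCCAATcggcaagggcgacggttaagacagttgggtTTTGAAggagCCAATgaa
Birc5: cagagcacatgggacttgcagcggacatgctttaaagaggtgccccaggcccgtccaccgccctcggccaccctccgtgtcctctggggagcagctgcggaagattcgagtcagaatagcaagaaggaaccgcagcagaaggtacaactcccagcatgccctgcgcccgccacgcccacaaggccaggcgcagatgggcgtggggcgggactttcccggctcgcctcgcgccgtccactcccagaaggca
Nusap1: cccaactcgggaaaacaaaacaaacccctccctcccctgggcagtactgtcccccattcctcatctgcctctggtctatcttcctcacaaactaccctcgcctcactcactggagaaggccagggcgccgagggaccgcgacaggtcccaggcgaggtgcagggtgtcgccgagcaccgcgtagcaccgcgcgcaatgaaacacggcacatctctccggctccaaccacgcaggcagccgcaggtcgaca

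In the Mcm6 line, the E2F letters stand at 3 places, 2 of which overlap on opposite strands, with 2 CCAAT boxes read on the opposite strand. The Mcm7 line holds 1 E2F match and 2 CCAAT boxes, all read on the opposite strand. The Top2a line holds 2 CHR matches among 6 CCAAT boxes, and the Cdc20 line holds 1 CHR match and 2 CCAAT boxes close to the start. The Birc5 and Nusap1 lines hold none of the 3 elements, which says only that these letters are not in these windows.

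Over the matched genes, an E2F element lay in 6 of 11 S-phase promoters (54.5%) and in 0 of 18 mitotic promoters, against 2.6% of 27025 genes. The CHR letters lay in 1 of 11 S-phase promoters (Mcm2) and in 12 of 18 mitotic promoters (66.7%), against 20.2% of all genes. CCAAT lay in 8 of 11 and 15 of 18, against 41.1%. CHR and CCAAT were found together in 12 of 18 mitotic genes and in 8.97% of all genes. Genes of the same processes outside the 42 had the same order: an E2F element in 32.5% of 40 other replication genes and 10.9% of 46 other mitotic genes, and CHR in 22.5% and 65.2%. The 4 matched regulators held an E2F element in 1 case (Cdk2) and no CHR letters. A match is a description of letters and not a bound site.

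The array facts that bear on all 42 genes are few. The median signal was 55.5 to 57.4 on the 7 arrays, which had been scaled to a common level, so every difference is relative to the rest of the array. The array's probe set for Adnp carries a second symbol, Dpm1, and read 961.4 ± 90.8 (SD, n = 2) in wild type, 1099 ± 106 (SD, n = 3) in heterozygotes and 1781 ± 140.5 (SD, n = 2) in knockouts, so the loss of Adnp RNA could not be checked and genotypes rest on the labels. The pools also differed in markers of cell types and of sex. Visceral endoderm markers, which mark the layer that lines the yolk sac, summed to 9194.5 and 11182.9 on the knockout arrays and to 472.7 to 2469.2 on the other 5. All 10 listed markers were higher on both knockout arrays than on every other array, 6 passed the test against wild type, and none was at 0 there. Neural markers summed to 827.5 and 833.6 in the knockouts against 1113.6 to 1327.6 elsewhere, and somite markers to 232.8 and 224.9 against 430.5 to 527.3. These sums hide differences between genes. Against wild type, Sox2, Nes, Meox1 and Pax1 fell and passed the test, while Pax6, Pax3 and Tcf15 did not pass. Of the heart markers, Myl2 (log2 difference -2.59) and Nppa (-2.08) fell and passed, while Myl7, Tnnt2 and Actc1 did not. In such bulk samples, fewer cells of a type and less RNA per cell cannot be told apart, and the part of these shifts in the results below was not tested. Sex markers went against the label on 4 arrays. The 3 Y-linked genes with a probe set summed to 32.9 and 21.4 in wild type and to 97.8 to 207.5 on the other 5 arrays. Xist, which silences the second X of females, read 801 and 844.4 in wild type, 595, 62 and 548.2 in heterozygotes, and 510.3 and 58.8 in knockouts. Both wild-type pools thus read as female, heterozygous replicate 2 and knockout replicate 2 as male, and the other 3 as mixed. No wild-type pool carried male signal, so in each comparison with wild type the sex of the pools cannot be told apart from genotype. None of the measured genes described here lies on X or Y. The first heterozygous array carried a signal of 890.2 for 2 decidual genes against 46.3 to 180.3 on the others.

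Against wild type, 2 of the 40 measured genes passed the test in the knockout, and both fell: Birc5, which encodes survivin of the chromosomal passenger complex, and Nusap1, which bundles spindle microtubules at the chromosomes. The test was limma on log2(signal + 3.8) over all 7 arrays, with p-values adjusted by Benjamini-Hochberg over 8020 genes and a threshold of 0.05. Of all genes, 3.3% passed it (157 genes or 1.96% higher, 108 genes or 1.35% lower), so 2 of 40 is close to the background share. Below an unadjusted p of 0.05, 13 of the 40 passed, 3 higher and 10 lower, where 19.1% of all genes did. The sizes were moderate: 5 of 40 differed by at least 0.5 on the log2 scale, where 13% of all genes did. The 3 roles did not lie at the same level. The median log2 difference was -0.004 over the S-phase genes, -0.296 over the regulators and -0.149 over the mitotic genes, beside -0.014 over all genes tested. These medians describe the lists and were not tested.

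**Figure D1:**
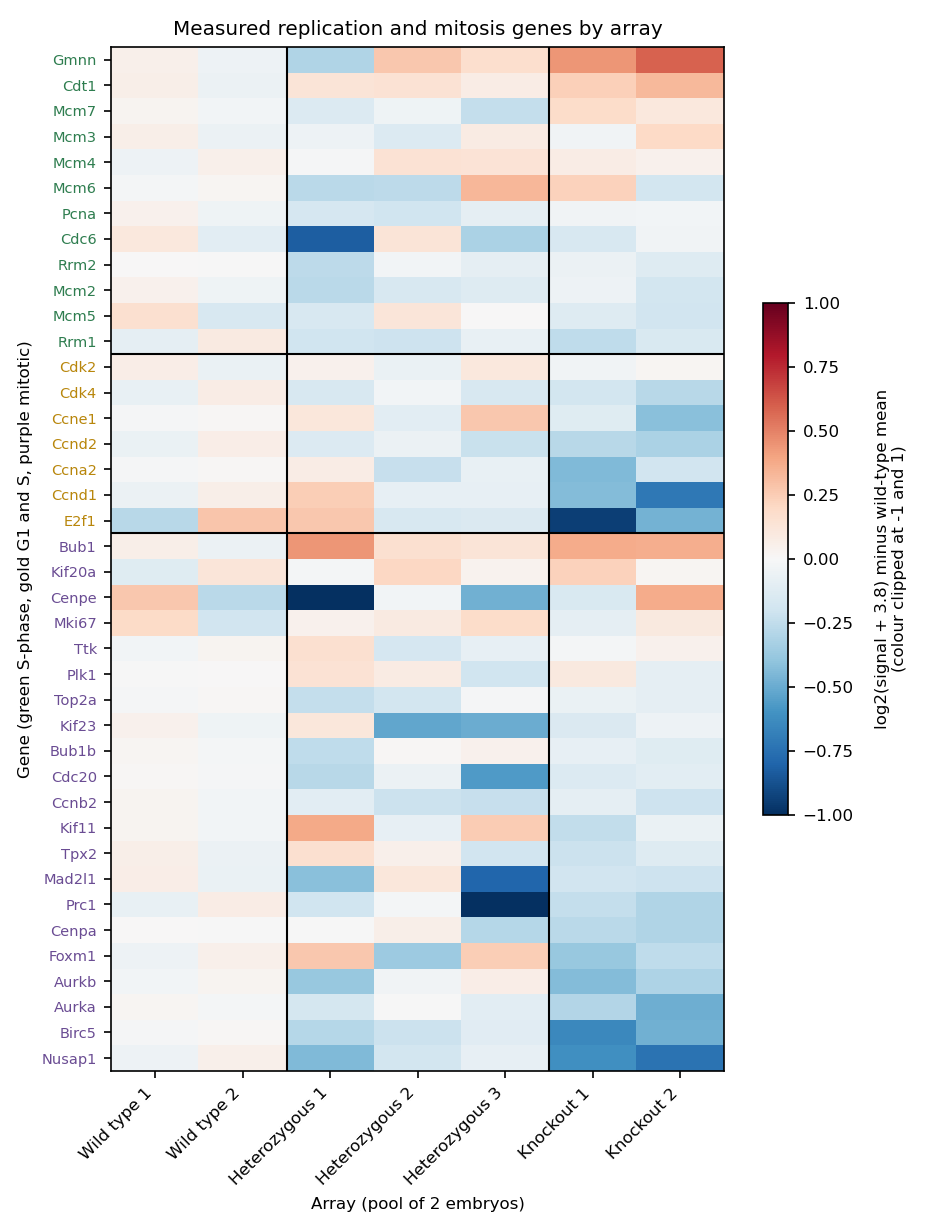
Each cell is the log2(signal + 3.8) of 1 of the 40 measured genes on 1 array (columns, in the order wild type, heterozygous, knockout) minus its wild-type mean, red above and blue below, with colour clipped at -1 and 1. The S-phase block is of mixed colour in the knockout columns, the regulator block is blue in both apart from Cdk2, and Birc5 and Nusap1 lie at the blue end of the mitotic block.

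Among the 12 measured S-phase genes, 0 passed the test in the knockout (limma, 2 below an unadjusted p of 0.05, both higher). Differences ran from -0.20 to 0.52, with 6 positive and 6 negative. The knockout arrays lay above both wild-type arrays for 3 of the 12 and below them for 3, where 24.8% and 28.2% of all genes did so. The largest difference belonged to Gmnn, which encodes geminin, the inhibitor that holds Cdt1 back after origins have been used. Gmnn signals were 618.4 and 575.7 in wild type, 482.4, 719.8 and 670.0 in heterozygotes, and 811.8 and 902.3 in knockouts. Both knockout arrays thus read higher than all 5 others, while the heterozygous arrays spread to both sides of wild type. The log2 difference of knockout from wild type was 0.52 ± 0.17 (SE, adjusted p = 0.137), and it passed only where the first heterozygous array (adjusted p = 0.0227) or all heterozygous arrays (0.0343) were left out.

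Cdt1, the licensing factor that geminin binds, read 1135.0 and 1047.0 in wild type, 1191.7, 1205.1 and 1145.2 in heterozygotes, and 1286.7 and 1366.8 in knockouts. On this probe set the 3 genotypes of Cdt1 do not overlap, with heterozygotes between the others, and the log2 difference of knockout from wild type was 0.28 ± 0.10 (SE, adjusted p = 0.149). A second Cdt1 probe set read 655.4 and 555.8 in wild type, 559.5, 640.6 and 551.8 in heterozygotes, and 722.5 and 694.6 in knockouts (0.23 ± 0.13). There the knockouts are again the highest pair, but the heterozygotes overlap with wild type. The mean over all Cdt1 probe sets, a very dim one included, gave 0.13 (adjusted p = 0.643). Mcm7, a helicase subunit, was the third gene with both knockout arrays above the 5 others, as 14.3% of all genes were. It read 2779.8 and 2677.3 in wild type, 2474.4, 2650.1 and 2307.2 in heterozygotes, and 3095.1 and 2934.6 in knockouts (0.14 ± 0.10, adjusted p = 0.464). Another of its 4 probe sets gave -0.14 ± 0.10, so the sign for Mcm7 depends on the probe set.

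Of the remaining S-phase genes, Rrm1, the large subunit of the ribonucleotide reductase that makes deoxynucleotides, had the most negative value. Rrm1 read 1034.9 and 1168.8 in wild type, 956.5, 951.3 and 1043.5 in heterozygotes, and 922.0 and 987.1 in knockouts, which lie below wild type and among the heterozygotes (-0.20 ± 0.11, adjusted p = 0.34). Mcm5 read 1159.7 and 927.0 in wild type, 927.6, 1126.1 and 1042.2 in heterozygotes, and 949.6 and 906.5 in knockouts (-0.16 ± 0.13, adjusted p = 0.566). The wild-type arrays of Mcm5 lie farther apart than the genotypes do. Pcna, the sliding clamp of the DNA polymerases, was the steadiest of the 40 genes, with a within-genotype SD of 0.048 on the log2 scale: 3699.8 and 3504.3 in wild type, 3211.4, 3132.6 and 3375.1 in heterozygotes, and 3516.8 and 3526.9 in knockouts. Its knockout arrays fell inside the wild-type range (-0.03 ± 0.09, adjusted p = 0.889). Mcm2, Mcm3, Mcm4, Mcm6, Rrm2 and Cdc6 had differences between -0.12 and 0.08 on the probe sets used. Other probe sets of these genes spread wider. They gave 0.57 ± 0.27 for Mcm2, -0.10 to 0.75 for Mcm3, 0.30 ± 0.19 for Mcm4 and 0.04 for Mcm6. For Rrm2 they gave -0.30 ± 0.11 and -0.06 ± 0.10. The 7 measured genes with an E2F element in the promoter, 6 S-phase genes and Cdk2, had a median of 0.02, from -0.16 to 0.28. The 24 measured genes whose promoter was found without one had a median of -0.14, from -0.71 to 0.37.

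All 7 regulators of G1 and S phase had negative differences in the knockout, from -0.71 to -0.01, where 4188 of all 8020 genes did. Of the 7, 0 passed the test against wild type (limma, 5 below an unadjusted p of 0.05). On the probe sets used, the knockout arrays lay below both wild-type arrays for 6 of the 7, where 28.2% of all genes did so. They lay below all 5 other arrays for 5: Ccnd1, Ccnd2, Ccne1, Cdk4 and E2f1, where 16.5% of all genes did. For Ccnd1, Ccnd2, Cdk4 and E2f1 this did not hold on every probe set. Another Ccnd1 probe set read 369.5 and 447.4 in knockouts and 405.7 on the first heterozygous array. Values for Ccnd2, Cdk4 and E2f1 are given below. Averaged over the 7 genes, the 2 knockout arrays stood at -0.35 and -0.34 from the wild-type mean, and the other 5 arrays between -0.11 and 0.06. Neither knockout array alone therefore sets this average.

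E2f1, the E2F factor that drives S-phase genes, had the largest difference of the 40 genes as fitted. It read 243.6 and 359.8 in wild type, 357.9, 265.1 and 267.1 in heterozygotes, and 152.0 and 212.2 in knockouts. The knockout arrays are the lowest of the 7, but the wild-type arrays lie far apart themselves (-0.71 ± 0.23, adjusted p = 0.125). Leaving out wild-type replicate 2 gave -0.43, leaving out knockout replicate 1 gave -0.47, and the mean of both E2f1 probe sets gave -0.46. Each is smaller than the difference of Birc5 as fitted. The dimmer E2f1 probe set alone, with signals of 49.6 to 79.4, gave -0.21 ± 0.24, with the knockout arrays among the others. Ccnd1, cyclin D1, which couples growth signals to CDK4 and CDK6, read 942.7 and 1017.4 in wild type, 1164.7, 922.9 and 925.4 in heterozygotes, and 723.5 and 596.4 in knockouts. The difference of knockout from wild type was -0.57 ± 0.14 (adjusted p = 0.0601), which did not pass. It passed in 4 of 20 other settings, with the lowest adjusted p (0.02) where the first heterozygous array was left out. Against the heterozygotes Ccnd1 fell by 0.60 ± 0.13 (adjusted p = 0.0283), the one gene of the 40 that passed there.

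Ccnd2, cyclin D2, read 2082.2 and 2276.2 in wild type, 1979.2, 2087.1 and 1869.6 in heterozygotes, and 1794.2 and 1749.9 in knockouts (-0.30 ± 0.10, adjusted p = 0.13). All 7 probe sets of Ccnd2 past the filter had negative differences, from -0.63 to -0.13, and so did all 3 of Ccnd1, from -0.57 to -0.31. On the Ccnd2 probe set used, the knockouts are lowest, with no overlap with either other genotype, while wild type and heterozygotes overlap. This did not hold on every Ccnd2 probe set. On one of them the knockouts read 543.3 and 460.5, and the third heterozygous array read 501.7. Ccne1, cyclin E1, which activates CDK2 at the start of S phase, read 346.0 and 351.2 in wild type, 378.1, 323.0 and 420.0 in heterozygotes, and 319.8 and 260.5 in knockouts (-0.27 ± 0.15, adjusted p = 0.383). Ccna2, cyclin A2, which acts in S phase and on into G2, read 1111.7 and 1130.7 in wild type, 1182.9, 953.8 and 1066.3 in heterozygotes, and 824.5 and 980.1 in knockouts (-0.32 ± 0.13, adjusted p = 0.213). The second probe set of Ccna2 gave 0.09 ± 0.14, so its sign depends on the probe set. Cdk2 differed by -0.01 ± 0.12 and Cdk4 by -0.23 ± 0.10. Other Cdk4 probe sets gave -0.30 ± 0.11 and -0.05 ± 0.10. On the latter the knockouts, at 1363.5 and 1261, lay among the other arrays.

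**Figure D2:**
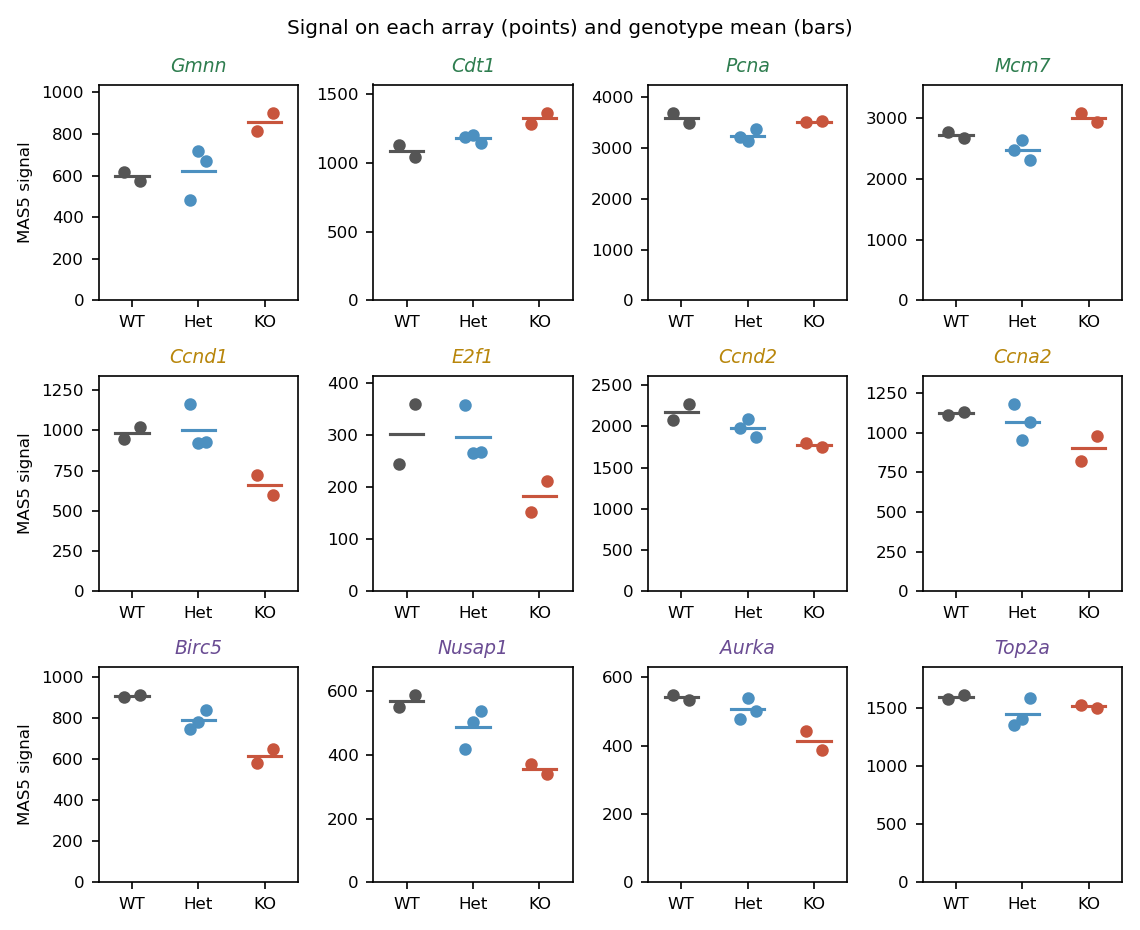
MAS5 signal of 12 genes on each array (points, y axis from 0) with the genotype mean (bars) for wild type (WT, 2 arrays), heterozygous (Het, 3) and knockout (KO, 2); title colours give the role, green S-phase, gold regulators and purple mitotic. Knockout points lie below all others for Ccnd1, E2f1, Ccnd2, Birc5, Nusap1 and Aurka, above all others for Gmnn, Cdt1 and Mcm7, and among the others for Pcna and Top2a.

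Among the 21 measured mitotic genes, 2 fell in the knockout and 0 rose, with 1.35% of all genes called lower. Differences ran from -0.68 to 0.37, 15 negative and 6 positive, beside 4188 negative and 3832 positive over all 8020 genes. The knockout arrays lay below both wild-type arrays for 15 of the 21 and above for 1, where 28.2% and 24.8% of all genes did so. They lay below all 5 others for 3 of 21 (Birc5, Nusap1 and Aurka), where 16.5% of all genes did, so this count is close to the background share. The average over the list was -0.17 and -0.14 from the wild-type mean in the knockouts and -0.13, -0.06 and -0.18 in the heterozygotes, so the 2 wild-type arrays, at 0.02 and -0.02, were high beside both other genotypes. The knockout and heterozygous averages overlap.

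Birc5 read 902.6 and 915.5 in wild type, 745.8, 781.0 and 841.9 in heterozygotes, and 580.0 and 648.9 in knockouts. The 3 genotypes do not overlap, with heterozygotes between the others. Birc5 fell by 0.56 ± 0.11 on the log2 scale (95% interval -0.81 to -0.32, adjusted p = 0.023), a knockout level of 0.676 times wild type.

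Nusap1 read 550.9 and 588.3 in wild type, 418.1, 501.7 and 537.1 in heterozygotes, and 370.6 and 339.2 in knockouts. As for Birc5, the genotypes do not overlap and the heterozygotes lie between. Nusap1 fell by 0.68 ± 0.14 (95% interval -0.98 to -0.37, adjusted p = 0.0272), to 0.625 times wild type. A second Nusap1 probe set with signals of 30.2 to 51.7 gave 0.05 ± 0.30 (adjusted p = 0.959), and with the mean of both the call was lost (-0.31, adjusted p = 0.353). Each of the 2 calls was also lost without any one of the wild-type or knockout arrays. The adjusted p of Birc5 was then 0.0797 and 0.179 without wild-type replicates 1 and 2, and 0.186 and 0.0996 without knockout replicates 1 and 2. For Nusap1 these values were 0.0723, 0.215, 0.115 and 0.189.

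Aurka and Aurkb encode the Aurora kinases of the spindle poles and of the passenger complex, the second being the partner of survivin. Aurka read 549.7 and 534.7 in wild type, 478.3, 540.9 and 502.3 in heterozygotes, and 442.6 and 386.3 in knockouts. The knockouts are the lowest pair (-0.39 ± 0.12, adjusted p = 0.111). Aurkb read 349.5 and 363.7 in wild type, 273.1, 347.7 and 374.0 in heterozygotes, and 262.3 and 286.7 in knockouts. For Aurkb the knockouts share their range with the first heterozygous array (-0.37 ± 0.16, adjusted p = 0.229).

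Bub1, a kinase of the spindle checkpoint, was the one mitotic gene with knockout arrays above wild type. It read 402.7 and 371.3 in wild type, 526.3, 433.1 and 424.3 in heterozygotes, and 501.6 and 498.3 in knockouts (0.37 ± 0.13, adjusted p = 0.167). The heterozygous arrays were above wild type too. A second Bub1 probe set was dim, with signals of 12.5 to 25.2, and was left out of the fit. Top2a, the topoisomerase that untangles sister chromosomes, read 1581.7 and 1615.7 in wild type, 1353.5, 1405.3 and 1587.2 in heterozygotes, and 1528.0 and 1502.9 in knockouts. Its difference was -0.08 ± 0.10 (adjusted p = 0.744), and the knockouts lie inside the heterozygous range.

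The other mitotic genes ranged from -0.32 for Foxm1, the transcription factor of the mitotic wave, to 0.13 for the kinesin Kif20a. Cenpa, the histone of centromeres, differed by -0.29 ± 0.13 and passed at an unadjusted p of 0.0489 but not after adjustment (0.259). Mki67, which encodes the proliferation marker Ki-67, Plk1, the polo-like kinase, and Ttk, the checkpoint kinase MPS1, had differences of 0.01, 0.00 and 0.01. The 13 measured genes with both CHR and CCAAT in the promoter, 12 of them mitotic, had a median of -0.12 (from -0.39 to 0.01). The 18 without that pair had a median of -0.10 (from -0.71 to 0.37). The motif groups of the promoters printed above thus overlap in their knockout differences.

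**Figure D3:**
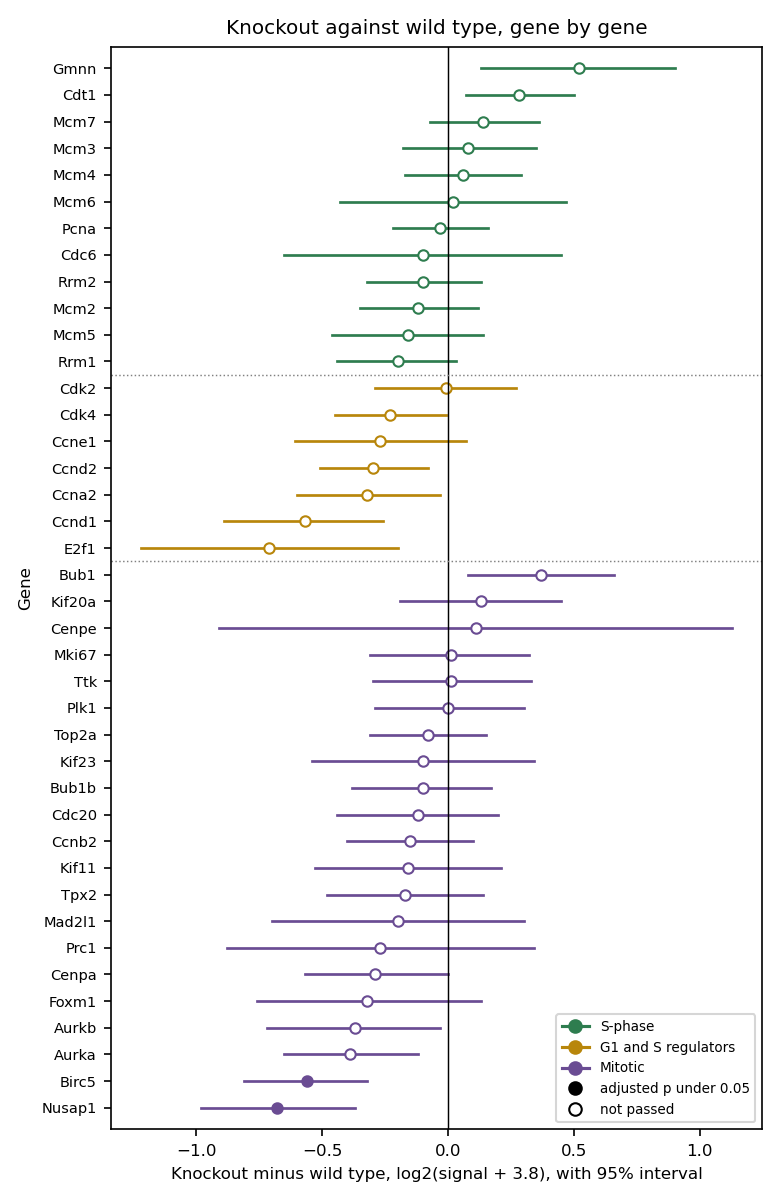
Difference of knockout from wild type on the log2(signal + 3.8) scale for each of the 40 measured genes (points) with its 95% interval (lines), ordered by size within the S-phase, regulator and mitotic genes; filled points passed an adjusted p of 0.05. The filled points are Birc5 at -0.56 and Nusap1 at -0.68, and the 7 regulators lie between -0.71 and -0.01.

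The heterozygous embryos, which keep 1 intact Adnp copy, gave 0 calls against wild type among the 40 genes and 0% of all 8020 genes (limma). Below an unadjusted p of 0.05, 282 genes passed (3.52%), of which 1 was among the 40: Cdc20, the activator of the anaphase-promoting complex. Cdc20 read 1306.8 and 1288.1 in wild type, 1070.2, 1244.8 and 876.2 in heterozygotes, and 1181.2 and 1204.4 in knockouts. On this probe set all heterozygous arrays lay below wild type (-0.30 ± 0.13, 95% interval -0.59 to -0.01, adjusted p = 0.999), and the knockouts lay among the heterozygotes. A second Cdc20 probe set read 1225.3 and 1029.5 in wild type and 1213.7, 1171.9 and 1101.7 in heterozygotes. There the heterozygotes lie inside the wild-type range, so their place below wild type depends on the probe set. On the probe sets used, the heterozygous arrays lay above both wild-type arrays for 2 of the 40 genes and below them for 8. Of all genes, 9.09% and 8.27% did so. Of these 8, 4 were S-phase genes (Mcm2, Mcm7, Pcna and Rrm2) and 4 mitotic genes (Ccnb2, Birc5, Cdc20 and Nusap1). Medians over the lists were -0.096 for S-phase genes, -0.011 for regulators and -0.097 for mitotic genes, with 0.006 for all genes. For Birc5 and Nusap1 the heterozygous differences were -0.20 ± 0.10 and -0.24 ± 0.12, and for Ccnd1 and E2f1 they were 0.03 ± 0.13 and -0.01 ± 0.21. Of these 4 genes, Birc5 and Nusap1 had every heterozygous signal between those of the other genotypes.

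For the S-phase list the first heterozygous array stood at -0.21 from the wild-type mean and the other 2 at -0.02 and -0.01, whereas for the mitotic list all 3 stood below wild type. The first heterozygous array had the lowest Cdc6 signal (199.6, against 284.7 to 389.0 on the others) and Cenpe signal (18.2, against 46.2 to 86.8). The third heterozygous array had the lowest Mad2l1 signal (531.2, against 687.9 to 997.1) and Prc1 signal (229.1, against 393.1 to 510.7). Cdc6 loads the helicase, Cenpe is a kinetochore motor, Mad2l1 a checkpoint protein and Prc1 a bundler of the central spindle. These 4 had the highest within-genotype SD of the 40 genes on the log2 scale: 0.347 for Cdc6, 0.655 for Cenpe, 0.324 for Mad2l1 and 0.402 for Prc1. The median SD was 0.089 for S-phase genes, 0.141 for regulators, 0.142 for mitotic genes and 0.17 for all genes tested.

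Between knockout and heterozygote, 1 of the 40 genes passed, Ccnd1, which fell, where 5.85% of all genes passed (250 genes or 3.12% higher, 219 genes or 2.73% lower). Below an unadjusted p of 0.05 there were 9 of the 40, beside 22.8% of all genes. The knockout arrays lay above all heterozygous arrays for 4 of the 40 and below them for 8, where 18.4% and 21.7% of all genes did so. The median differences were 0.105 over S-phase genes, -0.242 over regulators and -0.003 over mitotic genes, beside -0.023 over all genes. The regulators were below in 7 of 7 genes, the S-phase genes above in 9 of 12, and the mitotic genes were split, 10 above and 11 below. Of all genes, 3771 were above and 4249 below. Birc5 and Nusap1 differed by -0.36 ± 0.10 (adjusted p = 0.0626) and -0.44 ± 0.12 (adjusted p = 0.0676). The Ccnd1 call held without heterozygous replicate 2 (adjusted p = 0.0301) and was lost without heterozygous replicate 3 (adjusted p = 0.0518), knockout replicate 1 (0.0774) or knockout replicate 2 (0.232). This comparison and the one with wild type share the knockout arrays.

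**Figure D4:**
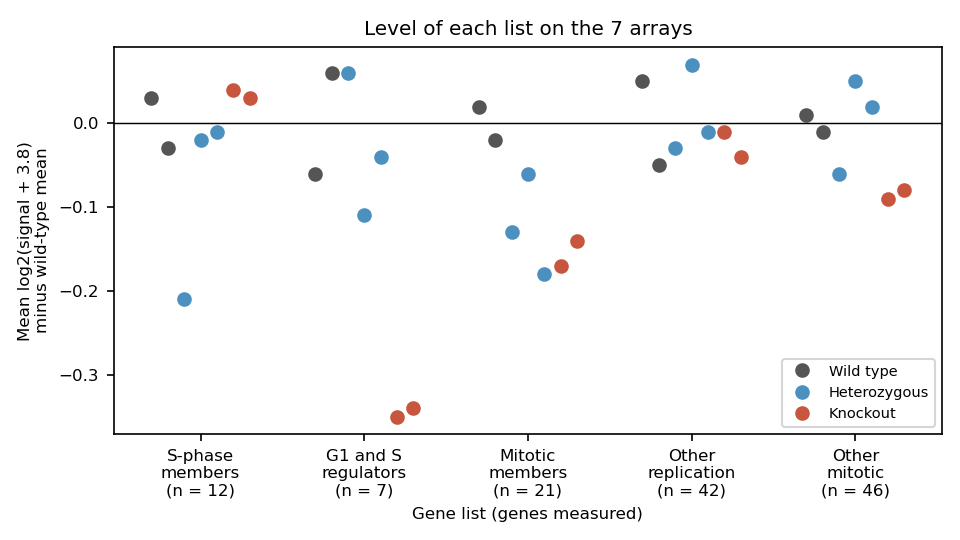
Mean log2(signal + 3.8) of each list on each of the 7 arrays minus its wild-type mean (y axis), for the 3 roles and for the lists of other replication and other mitotic genes (x axis, genes measured in brackets). Knockout points stand apart for the regulators at -0.35 and -0.34, near 0 for the S-phase genes, and beside the heterozygous points for the mitotic genes.

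A comparison across probe sets was possible for 21 genes, each with more than 1 probe set past the filter. In 15 of them all probe sets had the same sign of difference from wild type, and in 6 (Ccna2, Kif11, Mcm2, Mcm3, Mcm7 and Nusap1) the signs were mixed. In a fit over 12528 probe sets, the 40 measured genes had 76, of which 2 passed against wild type, those of Birc5 and Nusap1 already described, where 2.15% of all probe sets did. A further Foxm1 probe set stood out, and was singled out after its values were seen. It read 119.4 and 214.2 in wild type, 192.1, 115.0 and 152.1 in heterozygotes, and 72.7 and 42.4 in knockouts. Its difference was -1.46 ± 0.33 from wild type (adjusted p = 0.0588) and -1.37 ± 0.31 from heterozygotes (adjusted p = 0.042), where 3.71% of probe sets passed. The probe set used for Foxm1 gave -0.32 ± 0.21 and another one -0.16 ± 0.16, all negative but far apart in size.

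**Figure D5:**
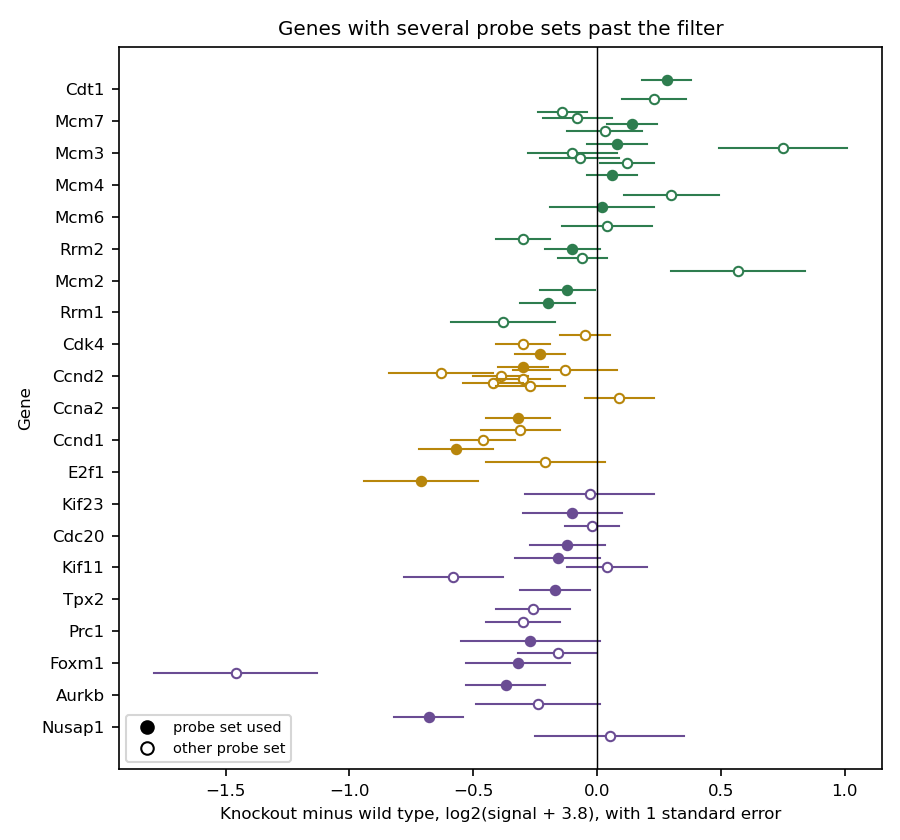
Difference of knockout from wild type on the log2(signal + 3.8) scale for every probe set past the filter (points, with 1 standard error) of the 21 genes that have more than 1; filled points are the probe sets used. All 7 of Ccnd2 and 3 of Ccnd1 lie left of 0, and one Foxm1 probe set lies at -1.46, well left of the others.

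Further genes of the cycle were read from 4 lists, whose counts against wild type stand beside 3.3% of all genes after adjustment and 19.1% before it. Of 48 other replication genes, 42 were measured and 0 passed in the knockout against wild type (13 below an unadjusted p of 0.05), with a median of -0.005. The smallest p-values belonged to Prim2, the large primase subunit, at -0.61 ± 0.17 (adjusted p = 0.089), and Rpa2, which coats single-stranded DNA, at -0.45 ± 0.13 (adjusted p = 0.106). In the heterozygotes Prim2 differed by -0.57 ± 0.16 (adjusted p = 0.999) and Rpa2 by 0.01 ± 0.12. Orc2, a subunit of the origin recognition complex, was the one gene of this list to fall against the heterozygotes, by 0.44 ± 0.11 (adjusted p = 0.0483). This 1 call of 42 stands beside 2.73% of all genes called lower there. It read 294.4, 275.1 and 306.8 there and 213.1 and 215.4 in the knockouts, below wild type at 267.8 and 267.6. The call held without heterozygous replicate 2 and was lost without each of the other 6 arrays in turn, with adjusted p-values from 0.0704 to 0.225.

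Of 54 symbols listed for other mitotic genes, 46 were measured and 0 passed (3 below an unadjusted p of 0.05), with a median of -0.071. The 54 hold Sgo1 and H2az1 under an older symbol as well. Racgap1, which directs cytokinesis, differed by -0.50 ± 0.14 (adjusted p = 0.0848) and Ckap2, a spindle protein, by -0.43 ± 0.14 (adjusted p = 0.127). This list averaged -0.09 and -0.08 on the knockout arrays and -0.06, 0.05 and 0.02 on the heterozygous ones. Of 25 inhibitors and brakes of the cycle, 21 were measured and 0 passed (4 below an unadjusted p of 0.05), with a median of 0.007. Among them Cdkn2d, which inhibits CDK4 and CDK6, differed by -0.43 ± 0.16 (adjusted p = 0.178) and Trp53inp1, a p53 target, by 0.64 ± 0.24 (adjusted p = 0.19). Cdkn1a, the p21 inhibitor that p53 induces, read 59.2 and 76.4 in wild type and 80 and 62.3 in knockouts, which overlap. Of 21 other cyclins, kinases and E2F genes, 17 were measured and 0 passed (4 below an unadjusted p of 0.05), with a median of -0.137. Fzr1, an activator of the anaphase-promoting complex in G1, differed by -0.52 ± 0.16 (adjusted p = 0.113), and Myc, a growth factor-induced transcription factor, by 0.58 ± 0.20 (adjusted p = 0.148).

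Adnp lies on chromosome 2, and 7 of the 40 measured genes lie there as well: Pcna, E2f1, Aurka, Bub1, Bub1b, Tpx2 and Nusap1. This split was made after the values were seen. Their median difference was -0.17, from -0.71 to 0.37, and that of the other 33 genes was -0.12, from -0.57 to 0.52, beside -0.03 over the 675 tested genes of chromosome 2. The 2 ranges overlap almost throughout. Of the 675 genes, 20 were called lower in the knockout against wild type, Nusap1 among them. Over all 8020 genes, 108 (1.35%) were. Whether the position on chromosome 2 bears on these differences was not tested.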

How the data were processed

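The deposited values are linear intensities, 1 per probe set and array. Per the submitters' processing notes, they were made with MAS5. MAS5 combines the probes of a probe set into 1 signal per array, and it is noisy for dim probe sets. The labels name no software version, scaling target or annotation build. With 2 or 3 arrays a genotype, their number limits precision.

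Analysis used log2(signal + 3.8), with the 10th percentile of the table as pseudocount, which understates the differences of dim genes. Of 22690 probe sets, 20380 had 1 symbol. Each of 12394 symbols was read from its probe set of highest mean signal, and genes under the 40th percentile of mean log2 signal were left out, leaving 8020. Groups and replicate numbers came from the sample titles. The test was limma 3.58.1 in R 4.3.3 (lmFit, then eBayes with its trend option). Genotype was the only term in a single model of the 7 arrays, with Benjamini-Hochberg adjustment. It was tested on simulated data. Errors are SE for differences and SD for signals.

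The genes and the pathway lists were chosen with earlier results of these data known, so no list was tested. Genes given per array are those past an adjusted p of 0.05 in any comparison and, in each role, the 5 with the largest difference of knockout from wild type and the 1 with the highest mean signal. From each list of other pathway genes, up to 4 past the threshold or the 2 of smallest p were named. Others are named as examples chosen after their values were seen. Another 20 settings were tried: pseudocount, filter, scaling, variance model, arrays, weights, replicate block, probe set choice and leaving out each array in turn.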

Additional observations from a re-analysis of the deposited data

How the results depend on the processing

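Over the 20 other settings, the number of the 40 genes that passed in the knockout against wild type was 2 or 3 except as follows. It was 0 without the intensity trend, 0 with the replicate block and 4 with only the 2 genotypes in the fit. It ran from 0 to 4 when each array was left out, with 0 without either wild-type or either knockout array. Against the heterozygotes, 1 passed in 10 of the 20 settings. The count was 0 without a filter, 0 without the trend, 0 with the replicate block, 4 with array weights, 2 with the mean of all probe sets, and 0 to 2 when each array was left out. Heterozygotes against wild type gave 0 throughout. The medians of the regulators and the mitotic genes stayed below 0. The S-phase median ran from -0.034 to 0.007 when each array was left out and from -0.038 to 0.011 otherwise. Of 420 repeats (21 named differences under 20 settings), 376 kept their direction and side of the threshold, 31 lost the call, 9 gained one and 4 reversed. Signs reversed for Mcm5 (0.0012, from -0.32 without wild-type replicate 2) and Pcna (0.0072, from -0.07 without wild-type replicate 2) without wild-type replicate 1, and for Mcm7 (-0.01) and Bub1 (-0.13) with the mean of all probe sets. The cause was not tested. Over all genes, the knockout against wild type count of 265 became 162 without a filter, 173 without the trend, 512 with array weights, 59 with the replicate block and 36 to 403 when each array was left out. Against heterozygotes, 469 became 308, 247, 658, 75 and 61 to 536. The labels do not say what a replicate number marks, and the numbers were not used to pair arrays: the correlation of replicate 1 minus 2 was -0.05 between knockout and wild type and -0.32 between heterozygous and wild type. One setting, the probe set of highest mean log2, was chosen after seeing the data.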
